A study of Mus musculus with 10 samples.

Results

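The nuclear-encoded subunits of the mitochondrial respiratory chain were compared in hepatocytes lacking Nrf2, p65, or both. A gene was taken as a member when it was protein-coding, had a mean of at least 10 counts over the 10 libraries, and carried a symbol of a chosen family. The families were Nduf followed by a, b, c, s, or v and a number (complex I), Sdh (complex II), Uqcr (complex III), Cox4 to Cox8 (complex IV), and Atp5 (complex V). Of the 21939 genes in the table, 89 had such a symbol and 81 reached the minimum, of which 38 belonged to complex I, 4 to complex II, 8 to complex III, 13 to complex IV, and 18 to complex V. All 81 were among the 13641 genes tested. The other 8 were Cox6a2, Cox7b2, Cox8c, and Ndufb11b, which had a count of 0 in every library, and Cox4i2, Cox8b, the Cox5b copy Cox5b-ps, and the second Atp5po entry (ENSMUSG00000116933), with means between 0.3 and 5.1 counts. Cox6a2 and Cox8b are isoforms of heart and skeletal muscle, and Cox4i2 is an isoform of the lung.

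Freshly isolated hepatocytes of adult male mice, aged 8 to 9 weeks at the start, were sequenced 12 days after AAV8Cre had been injected. In this adeno-associated virus Cre recombinase is driven by the thyroxine-binding globulin promoter and thereby restricted to hepatocytes. The 3 control mice were C57BL6/j, and the other mice shared this background and carried floxed alleles of Nrf2 (Nrf2 KO, 2 mice), of p65 (p65 KO, 2 mice), or of both genes (DKO, 3 mice). All genotypes received the same virus, so that Cre was shared by all groups, whereas no group carried floxed alleles without recombination. Total counts per library were between 33707165 and 49897382, and the members made up between 0.946% and 1.18% of them. Alb, the albumin gene of hepatocytes, had between 2472210 and 4159530 normalized counts in every library. The sums of 12 Kupffer cell and macrophage markers were between 428 and 1068 normalized counts in control and 6491 and 4814 in p65 KO, and RNA of other liver cells was thus present in unequal amounts. In such bulk samples, fewer cells of a type and less RNA per cell cannot be told apart. The total of Nfe2l2, the gene for Nrf2, was higher in Nrf2 KO than in control (log2 fold change 1.21), and that of Rela, the gene for p65, differed little in p65 KO (-0.07), but these totals do not count the deleted exons separately, and the genotypes are those of the labels.

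The respiratory chain of the inner mitochondrial membrane passes electrons from NADH (through complex I) and succinate (through complex II) to coenzyme Q, on to complex III and cytochrome c, and finally to oxygen at complex IV, while the proton gradient built on the way drives ATP synthesis by complex V. Complexes I, III, IV, and V combine subunits encoded in the nucleus with a few encoded by mitochondrial DNA, whereas complex II is encoded by the nucleus alone. In hepatocytes the chain supplies the ATP used for gluconeogenesis and urea synthesis and takes up the electrons released by fatty acid oxidation.

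In control libraries, per kilobase of transcript, Atp5f1b, which encodes the catalytic β subunit of ATP synthase, and Ndufa4 were highest, with 22735 and 22598 normalized counts per kilobase. Ndufa4 carries a complex I name and was counted there by its symbol, but its product is a subunit of complex IV. Cox4i1 followed with 14977. Ndufa4l2 and the testis isoform Cox6b2 were lowest, with 30.8 and 39.9. All levels are normalized counts, for which each library's counts were divided by its TMM-scaled size, taken relative to the mean size of the 10 libraries.

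Most of these genes had their lowest levels in p65 KO. The summed level of the 81 members was 466768, 411940, and 469718 normalized counts in control, 437162 and 456035 in Nrf2 KO, 324005 and 395579 in p65 KO, and 437495, 403980, and 421986 in DKO. Both p65 KO libraries thus lay below all 8 others, with p65 KO replicate 1 well below replicate 2. The gap between p65 KO and the lowest of the other libraries was small for replicate 2. As a share of a library's total count, p65 KO replicate 1 was again lowest, at 0.946%. Replicate 2, at 1.15%, instead lay above control replicate 2 (1.12%), Nrf2 KO replicate 2 (1.13%), and all DKO libraries (1.00% to 1.04%). Among the 4 genotypes, the mean was lowest in p65 KO for 76 of 81 members, compared with 33.1% of all genes tested.

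**Figure D1:**
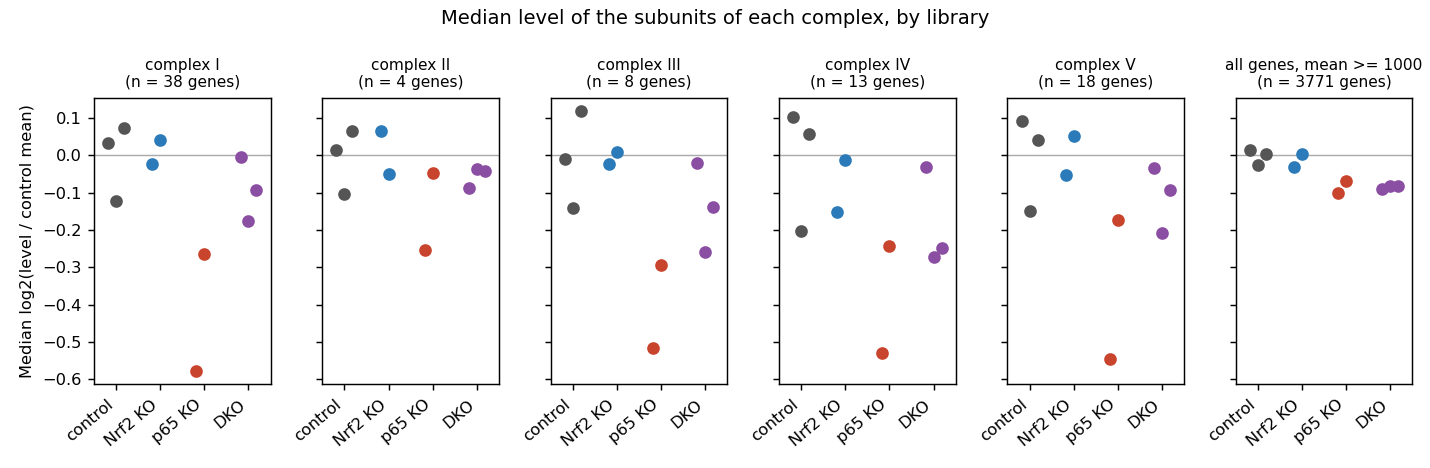
Median over the subunits of each complex of the log2 ratio of a library's level to the control mean (vertical axis, a pseudocount of 0.5 added to normalized counts), for each library of the 4 genotypes (1 point per library), with the 3771 genes with a mean of at least 1000 counts for comparison. The p65 KO points of complexes I and III are below those of all other genotypes, at -0.58 and -0.26 for complex I, whereas the 4 complex II genes lie at -0.25 and -0.05.

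In p65 KO compared with control, 26 of the 81 members fell and none rose at an adjusted p of at most 0.05 (edgeR's quasi-likelihood test, adjusted over all genes tested), whereas 6.77% of all genes tested were lower and 8.13% higher. Of the 3771 abundant genes, those with a mean of 1000 counts or more and with 77 of the members among them, 13.1% were lower. DESeq2 called 37 members lower, among them all 26. None reached the study's second threshold, a log2 fold change of at least 1 with a significant p, which 6.59% of all genes reached. The log2 fold change was below 0 for 80 of 81 members (49.8% of all genes, 60.2% of the abundant ones), and for 60 of 81 both p65 KO libraries lay below all 3 control libraries (23.8% and 35.3%). The median log2 fold change of the members was -0.39, while it was 0.00 over all genes tested and -0.08 over genes with a mean of at least 1000 counts. Among the 26, Ndufa12 decreased by 22.6% and Ndufb4 decreased by 44.2%, the smallest and the largest change.

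The significance of this decrease rested on p65 KO replicate 1. Without it, only Ndufb4 passed, the median of the members was -0.24, and 75 of 81 members remained below 0. Without p65 KO replicate 2, 34 members passed and the median was -0.54. Without control replicate 1, 4 members passed, and without control replicate 3, 7 passed. Offsets for transcript length and GC content, an alternative chosen after the data had been seen, left 7 members lower and raised 2 (Cox6c and Atp5mc1), with a median of -0.12 and 57 of 81 members below 0. With libraries scaled to equal totals, 4 members were lower, the median was -0.20, and 71 members were below 0.

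Complex I held 16 of the 26 members lower in p65 KO and had a median of -0.42. It is also the largest complex here, with 38 of the 81 members. The 16 include Ndufa4, whose product belongs to complex IV, and differences between the complexes were not tested. Ndufb4, an accessory subunit of the membrane arm (chromosome 16, 37467242 to 37474815 in GRCm39), had 2166, 2089, and 2226 normalized counts in control, 1849 and 2117 in Nrf2 KO, 1014 and 1395 in p65 KO, and 2008, 1805, and 1845 in DKO. Both p65 KO libraries were below all others by a clear margin. Ndufb4 fell by 0.84 on the log2 scale (standard error [SE] 0.14, adjusted p = 0.00478), and it was the only member that passed in all 20 alternative analyses of this comparison.

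Ndufb9, which lies in the same arm (chromosome 15, 58805594 to 58814819), had 7183, 6109, and 7205 normalized counts in control and 3525 and 4881 in p65 KO. In Nrf2 KO it had 6423 and 6991 and in DKO 6586, 6198, and 6447, so that p65 KO stood apart from the other 3 genotypes, which overlapped with each other. It fell by 0.70 on the log2 scale (SE 0.146, adjusted p = 0.0125). Ndufb7, an accessory subunit that faces the intermembrane space (chromosome 8, 84293300 to 84298255), had 1860, 1791, and 1971 in control, 1889 and 2072 in Nrf2 KO, 1257 and 1439 in p65 KO, and 1943, 1749, and 1829 in DKO. Again only p65 KO was separated from the other genotypes (log2 fold change -0.48, SE 0.109, adjusted p = 0.0181).

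**Figure D2:**
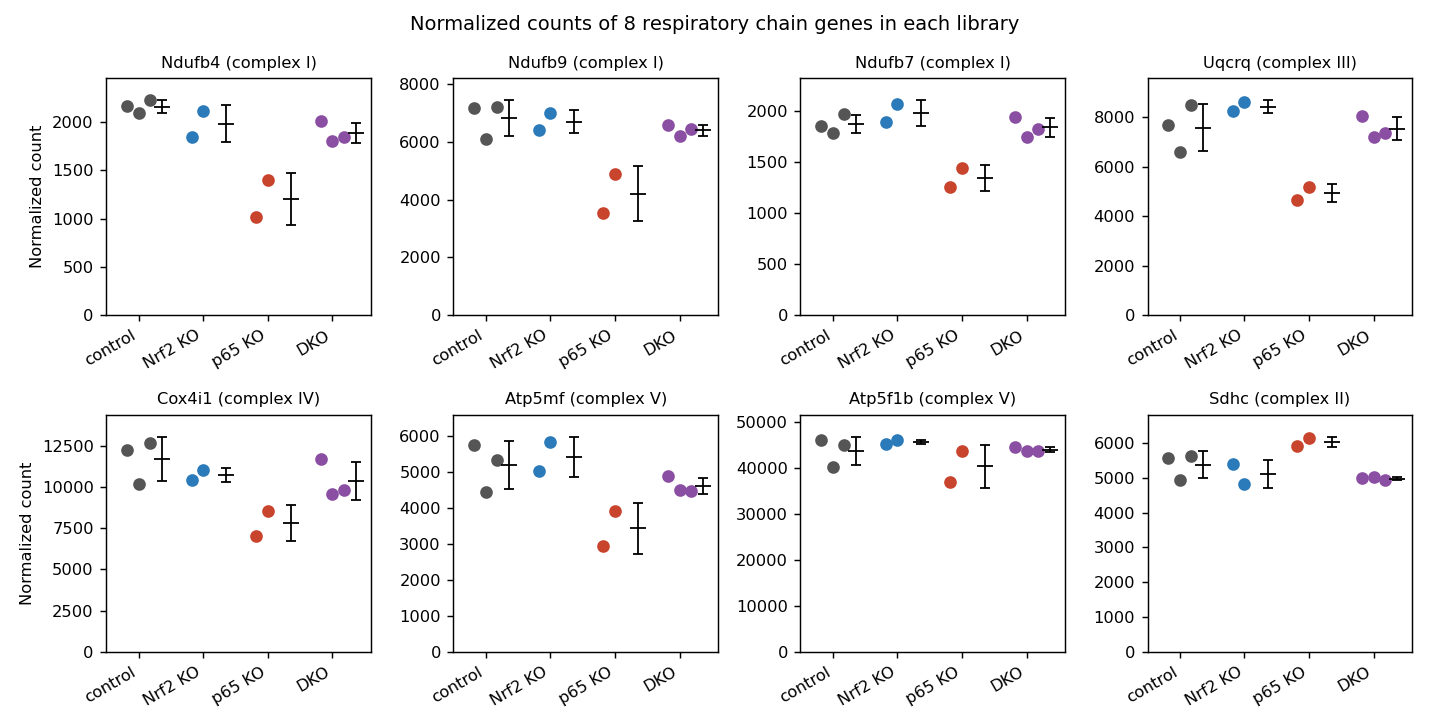
Normalized counts (vertical axis, from 0) of 8 members in each library of the 4 genotypes (points), with the mean and SD of each genotype beside them in black. For Ndufb4, Ndufb9, Ndufb7, Uqcrq, Cox4i1, and Atp5mf both p65 KO points lie below all others, whereas for Atp5f1b the genotypes overlap and for Sdhc both p65 KO points, 5923 and 6138, are the highest.

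By subfamily, 8 of the 11 Ndufb genes fell, and for all 11 both p65 KO libraries were below control, compared with 6.77% and 23.8% of all genes tested. These genes encode accessory subunits of the proton-pumping membrane arm. Besides the 3 above, they were Ndufb1 (log2 fold change -0.78), Ndufb3 (-0.62), Ndufb11 (-0.54), Ndufb6 (-0.52), and Ndufb8 (-0.45). Ndufb1 varied most between the p65 KO mice, with 876 and 1453 normalized counts against 1953 to 2054 in control. Of the 14 Ndufa genes, 5 fell (Ndufa4, Ndufa2, Ndufa13, Ndufa6, and Ndufa12), with log2 fold changes between -0.57 and -0.37. Neither Ndufc gene passed.

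In the Ndufs and Ndufv subfamilies of complex I, 3 genes passed. Among the 11 Ndufs and Ndufv genes, most of which encode the subunits with the flavin and iron-sulfur clusters and their partners in the matrix arm, Ndufs7 (-0.70, adjusted p = 0.016), Ndufs8 (-0.49, adjusted p = 0.0361), and Ndufv3 (-0.48, adjusted p = 0.0424) fell. Ndufs7 had 1978, 2123, and 2328 normalized counts in control and 1236 and 1394 in p65 KO, which did not overlap. The core genes Ndufs1 and Ndufv1 had values of -0.38 (adjusted p = 0.113) and -0.30 (adjusted p = 0.0932) and did not pass. In both of them the p65 KO libraries were nevertheless below all controls. Whether the subfamilies differ from each other was not tested. Ndufa4l2, a paralog of Ndufa4 known to be induced by hypoxia, stayed low, with between 19.5 and 48.4 normalized counts in all libraries, and its genotypes overlapped.

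Complex II, which is also an enzyme of the citric acid cycle, had no member that passed and a median of -0.15, which became 0.0328 with equal totals. Sdha, the flavoprotein subunit, had 19501, 19110, and 20643 normalized counts in control and 17011 and 18360 in p65 KO. These did not overlap, but the difference did not pass (log2 fold change -0.16, SE 0.109, adjusted p = 0.342). Sdhb, the iron-sulfur subunit, had 5253, 5211, and 6159 in control and 3950 and 5056 in p65 KO (-0.30, adjusted p = 0.161). Sdhc, a membrane anchor, was the only member of all 81 with a value above 0, with 5567, 4942, and 5631 in control and 5923 and 6138 in p65 KO (0.16, adjusted p = 0.306). The other anchor, Sdhd, overlapped between the groups (-0.13, adjusted p = 0.493). With 4 genes, the complex offers few values, and its difference from the other complexes was not tested.

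In complex III, 3 of 8 members fell (6.77% of all genes tested), and the median was -0.40. Uqcrq, a small accessory subunit (chromosome 11, 53318749 to 53322047), had 7674, 6581, and 8488 normalized counts in control, 8231 and 8617 in Nrf2 KO, 4670 and 5195 in p65 KO, and 8059, 7210, and 7352 in DKO. Both p65 KO libraries were below all other libraries (log2 fold change -0.62, SE 0.128, adjusted p = 0.0123). Uqcr10 (-0.61) and the hinge protein gene Uqcrh (-0.63) fell as well. Uqcrc1 and Uqcrc2, the core proteins, and Uqcrfs1, the Rieske iron-sulfur protein, had values of -0.33, -0.35, and -0.28 and did not pass, with adjusted p between 0.0566 and 0.159.

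In complex IV, 3 of 13 members fell (6.77% of all genes tested), and the median was -0.41. This share was no higher than the 26% among abundant genes outside the respiratory chain with a coding length of at most 500 bases. Cox4i1, the common isoform of the largest nuclear-encoded subunit, had 12276, 10192, and 12714 normalized counts in control, 10430 and 11049 in Nrf2 KO, 7030 and 8571 in p65 KO, and 11723, 9612, and 9815 in DKO. Control, Nrf2 KO, and DKO overlapped and p65 KO did not overlap with them (log2 fold change -0.59, SE 0.146, adjusted p = 0.0241). The other 2 genes were Cox7c (-0.50) and Cox7a2 (-0.51), the liver isoform of subunit VIIa. Cox5a and Cox5b had log2 fold changes of -0.29 and -0.39, Cox6a1 of -0.41, and Cox8a of -0.46, and none of them passed. The values closest to 0 were those of Cox6c (-0.02) and of Cox7a2l (-0.06), which encodes a factor of supercomplex assembly. The largest value of the complex belonged to Cox6b2 (-1.05, adjusted p = 0.316), which had at most 29.8 normalized counts in any library. Cox7a1, the heart and muscle isoform, had between 25.4 and 88.1 and did not pass (-0.65).

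In complex V, 4 of 18 members fell, namely Atp5mf (-0.60), Atp5mg (-0.58), Atp5f1e (-0.59), and Atp5f1d (-0.43), and the median was -0.35. Of all genes tested 6.77% fell, and of the short abundant genes outside the chain 26%, so that the share in complex V was no higher than that of short genes. Atp5mf, which encodes the f subunit of the membrane part, had 5761, 4450, and 5349 normalized counts in control and 2936 and 3929 in p65 KO. These did not overlap (adjusted p = 0.0278). The 2 most abundant members, which encode the α and β subunits of the catalytic hexamer, had small differences. Atp5f1a had 33942, 31834, and 35512 in control and 28798 and 34070 in p65 KO (-0.10, adjusted p = 0.592), and Atp5f1b had 46055, 40295, and 45013 against 37011 and 43713 (-0.12, adjusted p = 0.544), so that both overlapped with control. The γ subunit gene Atp5f1c (-0.37, adjusted p = 0.0944) and Atp5if1, the inhibitor of ATP hydrolysis by the complex (-0.33, adjusted p = 0.319), did not pass. Thus Atp5f1d and Atp5f1e, the small subunits of the central stalk, passed, whereas the α, β, and γ subunits did not.

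**Figure D3:**
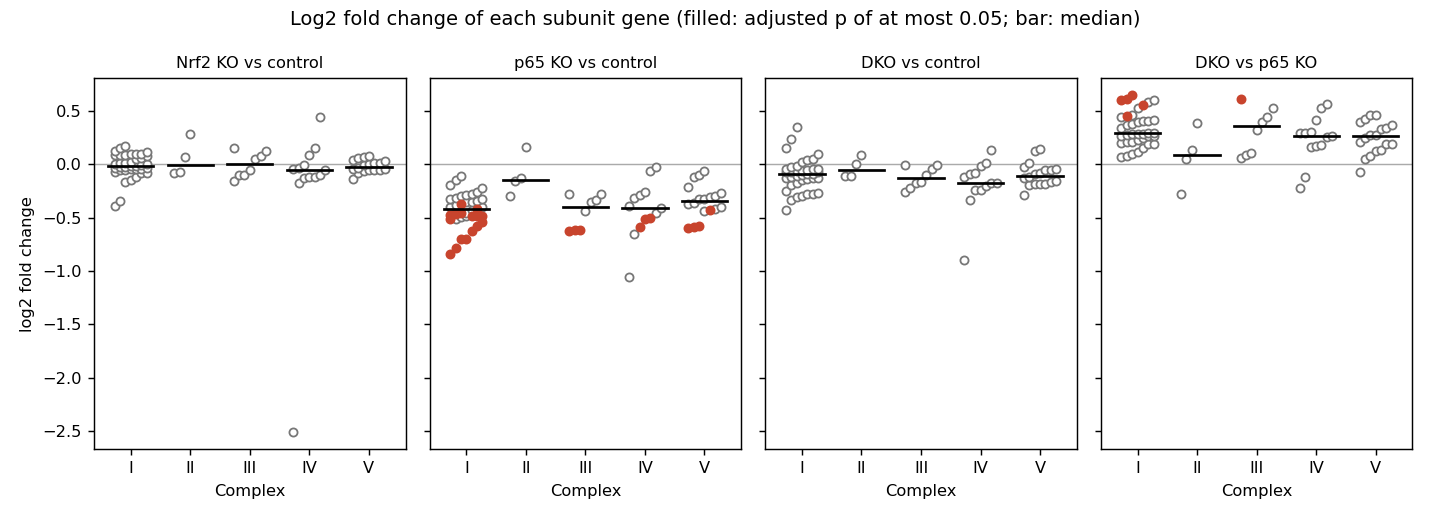
Log2 fold change (vertical axis) of each of the 81 members by complex in 4 comparisons, with filled points for an adjusted p of at most 0.05 and a bar at the median of each complex. In p65 KO compared with control 80 of 81 points are below 0 and 26 are filled, in DKO compared with p65 KO 77 are above 0 and 6 are filled, and none is filled in Nrf2 KO or DKO compared with control.

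In Nrf2 KO, these genes were close to control on average. None of the 81 members passed in Nrf2 KO compared with control with edgeR or with DESeq2, whereas 0.132% of all genes tested were higher and 0.594% lower with edgeR. At an unadjusted p under 0.05 there were 2 members (9.38% of all genes), Cox6b2 and Ndufb3. Cox6b2 had 29.8, 17.7, and 24.3 normalized counts in control and 5.93 and 2.42 in Nrf2 KO (log2 fold change -2.51, adjusted p = 0.251), and Ndufb3 had 1627, 1765, and 1521 against 1182 and 1318 (-0.39, adjusted p = 0.43). Neither overlapped with control. The median was -0.03 over all members and between -0.05 and 0.00 in the single complexes. The members with the largest values in the other complexes were Sdhb (0.28), Uqcr10 (-0.15), and Atp5mc3 (-0.14), the last of which lies 1.76 Mb from Nfe2l2.

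In DKO compared with control, no member passed with edgeR or with DESeq2 (2.61% of all genes were higher and 2.84% lower with edgeR), and 8 had an unadjusted p under 0.05 (22.5% of all genes). The median was -0.10, with -0.09 in complex I, -0.06 in complex II, -0.13 in complex III, -0.18 in complex IV, and -0.11 in complex V. Over all members it was -0.17 without control replicate 2, -0.0583 without DKO replicate 2, and -0.19 with equal totals. The value over genes with a mean of at least 1000 counts was -0.08, close to that of the members. Ndufc1, a small subunit of complex I, had the lowest p. It had 979, 1162, and 1157 normalized counts in control and 1435, 1184, and 1584 in DKO, which did not overlap (0.35, adjusted p = 0.119). The largest values in each complex were those of Ndufs5 (-0.42), Sdha (-0.11), Uqcrc2 (-0.26), Cox6b2 (-0.89), and Atp5mk (-0.29).

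The additional loss of Nrf2 in p65-deficient hepatocytes went with higher levels of some of the genes. In DKO compared with p65 KO, 6 members rose and none fell, while 2.05% of all genes were higher and 2.06% lower. With the offsets, 3 were higher (Ndufb9, Ndufb4, and Uqcrq) and Cox6c was lower. The 6 members were Ndufb4 (log2 fold change 0.65, adjusted p = 0.0331), Uqcrq (0.61, adjusted p = 0.0296), Ndufb9 (0.61, adjusted p = 0.0437), Ndufb7 (0.45, adjusted p = 0.0462), Ndufc1 (0.61, adjusted p = 0.0373), and Ndufb10 (0.56, adjusted p = 0.0413). Ndufb10 had 2251 and 2835 normalized counts in p65 KO and 4099, 3615, and 3505 in DKO, against 2983, 3107, and 3428 in control. Its DKO libraries were above those of p65 KO and of control. The first 4 genes also fell in p65 KO compared with control, a comparison that shares the p65 KO libraries with this one.

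The log2 fold change between DKO and p65 KO was above 0 for 77 of 81 members (50% of all genes), or 61 with the offsets and 44 with equal totals, and all DKO libraries were above both p65 KO libraries for 45 (18.5% of all genes). The median was 0.28, with 0.29 in complex I, 0.09 in complex II, 0.36 in complex III, 0.26 in complex IV, and 0.26 in complex V, against 0.00 over all genes. Other genes with short transcripts also had medians above 0 in this comparison, and their values are given below by transcript length. The DKO mean lay between those of p65 KO and control for 63 of 81 members, compared with 21.1% of all genes. Only genes lower in p65 KO than in control could count here. The log2 fold change was below 0 in that comparison for 80 of 81 members but for 49.8% of all genes. The counts of 77, 45, and 63 members all rest on the p65 KO libraries in which the members were low, so all genes are not a matched base. None of the 6 genes passed without p65 KO replicate 1, where the median was 0.14, or without DKO replicate 1, and 2 to 4 members passed without any 1 of the other 8 libraries. When libraries were scaled to equal totals, Sdhc and Cox6c were lower and no member was higher. The medians were then 0.0106 over all members and below 0 in complexes II, IV, and V, and this scaling moved the median of all genes by -0.27.

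Between DKO and Nrf2 KO, no member passed with edgeR or DESeq2 (0.323% of all genes were higher and 0.191% lower with edgeR), and 1 member, Cox7a2l, had an unadjusted p under 0.05 (14.4% of all genes). The median was -0.08. The interaction subtracts the effect of Nrf2 loss in the presence of p65 (Nrf2 KO against control) from its effect in the absence of p65 (DKO against p65 KO). It was above 0 for 77 members (51% of all genes), or 44 with equal totals and 32 without scaling, and had a median of 0.29, but no member passed with edgeR, while 0.264% of all genes were higher and 0.205% lower. At an unadjusted p under 0.05 there were 17 members (13.8% of all genes), and DESeq2 called 2, Ndufb4 (edgeR log2 value 0.77, adjusted p = 0.129) and Ndufb1 (0.95, adjusted p = 0.139). A difference in the effect of Nrf2 loss with and without p65 was therefore not shown for any member by edgeR. The interaction also draws on the p65 KO libraries in which most members were low.

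Several measurements moved with the p65 KO values. Short genes outside the respiratory chain were lower in the same libraries. Among genes with a mean of at least 1000 counts and a coding length of at most 500 bases, the 323 genes outside the respiratory chain had a median of -0.30 on the log2 scale in p65 KO, and 26.0% of them passed as lower. The 46 members in this class had a median of -0.42, and 41.3% of them passed as lower. In the next class, up to 1000 bases, the medians were -0.18 over 916 other genes and -0.37 over 19 members, and in that up to 2000 bases they were -0.05 over 1461 and -0.29 over 11. By transcript length, the median of other genes went from -0.45 at up to 600 bases over -0.41 at up to 1000, -0.23 at up to 2000, and -0.079 at up to 4000 to 0.04 in the longest class. Members were at -0.46, -0.42, -0.37, -0.32, and -0.49 in the same classes, which held 15, 21, 21, 15, and 5 of them, so that they lay close to other genes in the 2 shortest classes and below them in the 3 longer ones. In DKO compared with p65 KO, the medians of other genes were 0.19, 0.19, 0.09, 0.00, and -0.07 from the shortest to the longest class. Those of the members were 0.28, 0.37, 0.29, 0.11, and 0.39. Per library, the 323 short genes were at -0.42 and -0.20 in the 2 p65 KO libraries, in the same order as the members at -0.54 and -0.24. Over the 77 members with such a mean, the log2 fold change and the coding length had a Spearman correlation of 0.31, a description across genes that share their libraries. The part of gene length in the decrease was examined only by the offsets above.

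**Figure D4:**
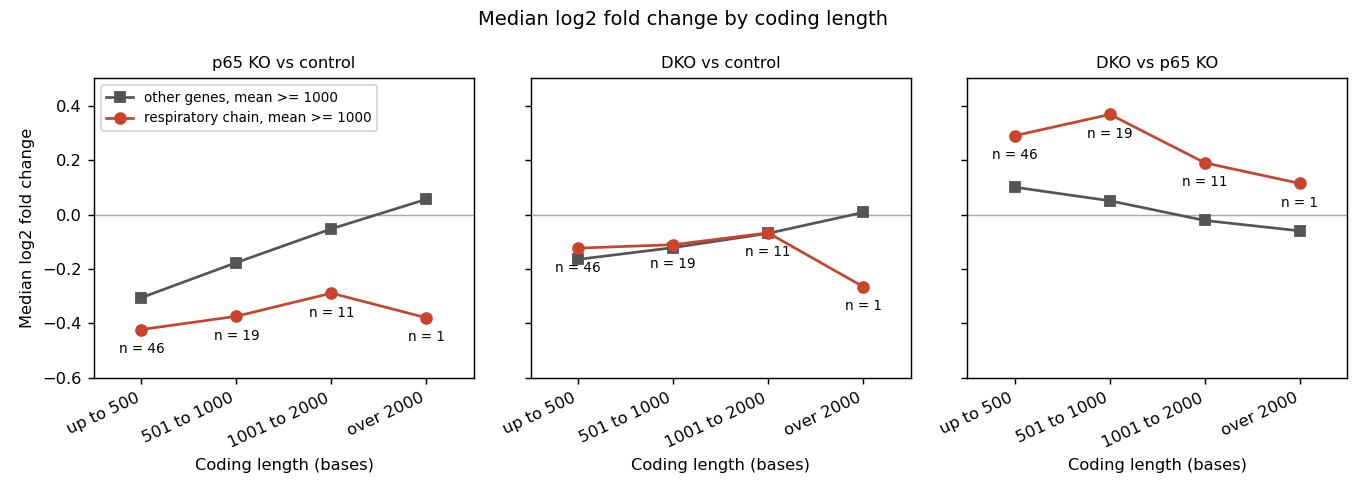
Median log2 fold change (vertical axis) of members (circles, with their number) and of all other genes (squares) with a mean of at least 1000 counts, by coding length (horizontal axis, bases), in 3 comparisons. In p65 KO the other genes go from -0.30 in the shortest to 0.06 in the longest class while the members stay between -0.42 and -0.29 in the classes up to 2000 bases, and in DKO compared with control both sets run close together in these classes. The class over 2000 bases holds 1 member, Ndufs1.

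Markers of Kupffer cells and macrophages, sinusoidal endothelial cells, and stellate cells were also higher in p65 KO. No marker of T and NK cells, B cells, neutrophils, cholangiocytes, or erythroid cells passed in p65 KO compared with control. The median log2 fold changes of these lists were 1.19, 2.24, 2.04, -0.22, and -0.80. All 12 Kupffer cell and macrophage markers rose in p65 KO (median log2 fold change 2.80) and 6 of 12 in DKO, where their sums were between 1833 and 3195 normalized counts. All 6 markers of sinusoidal endothelial cells (sums of 463 to 1016 in control, 3051 and 2525 in p65 KO, and 1303 to 1695 in DKO) and 5 of 6 markers of stellate cells (131 to 322, 1459 and 1454, and 247 to 650) rose in p65 KO, and 1 of each list rose in DKO. None of these markers was at 0 in every library. The sum of the 8 hepatocyte markers was between 3515290 and 5555960 in all libraries, and Alb alone made up most of it. Of these 8 markers, 2 (Hnf4a and Cps1) rose and none fell in p65 KO. Sums of markers are not shares of cells or of RNA. The part of these cells in the respiratory chain values was not tested.

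Other genes of the pathway are given by list. Of the 13 subunits encoded by mitochondrial DNA, 5 fell in p65 KO (mt-Nd3, mt-Atp8, mt-Co2, mt-Cytb, and mt-Co3) and none rose, with a median of -0.52, whereas none passed in DKO (median 0.02). Of all genes tested, 6.77% were lower in p65 KO. In Nrf2 KO none of the 13 passed, with a median of -0.24. In DKO compared with p65 KO, mt-Nd3 and mt-Atp8 rose. The sum of the 13 was lowest in p65 KO replicate 2 (2406170 normalized counts, against 3208510 in replicate 1), the replicate in which the nuclear-encoded members were less reduced. Replicate 1 lay above Nrf2 KO replicate 1 (3053900). As a share of the total count, p65 KO replicate 2 was again lowest (7.02%), whereas replicate 1 (9.37%) lay above control replicate 1 (8.77%). The values of these subunits rest on messenger RNA selected by its poly(A) tail.

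Of the 5 electron carrier genes, the 3 of the electron transfer flavoprotein pathway, which brings electrons from fatty acid oxidation to coenzyme Q, fell in p65 KO. These were Etfdh (-0.88, adjusted p = 0.00142), Etfb (-0.55), and Etfa (-0.46). Etfdh was also lower in DKO (-0.75, adjusted p = 0.00202). Cycs, which encodes cytochrome c, and Cyc1, the cytochrome c1 subunit of complex III, had values of -0.42 and -0.29 and did not pass. Coq8a, which encodes an atypical kinase needed for coenzyme Q synthesis, showed the largest decrease of the 13 genes in its list, with -2.001 in p65 KO (adjusted p = 0.000636) and -0.73 in DKO (adjusted p = 0.0277), and it was higher in DKO than in p65 KO (1.27, adjusted p = 0.0086). Coq9 fell (-0.47) and Coq10b rose (1.59) in p65 KO.

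Of the assembly factors, 1 of 17 for complex I and 4 of 34 for complexes II to V fell in p65 KO, and none rose. These shares are near those of all genes (6.77% lower, and 13.1% among the abundant genes with means from 1000 counts). The list of 17 also holds Ndufab1, a subunit of complex I whose symbol the rule for members did not take in. The 5 genes were Ndufaf8 (-0.65), the copper chaperone Sco2 (-1.001), Uqcc2 (-0.80), Cox20 (-0.64), and Coa3 (-0.53). All but Coa3 were higher in DKO than in p65 KO, with log2 fold changes of 0.85, 1.11, 0.81, and 0.53. The list medians in p65 KO were -0.31 and -0.29. In DKO compared with control only Cox19 passed (-0.59). Of 14 citric acid cycle genes, Idh3b and Sucla2 fell in p65 KO (median -0.19), again a share close to that of the abundant genes (13.1%). A list of 78 mitochondrial ribosomal proteins, added after the data had been seen, had 32 members lower in p65 KO (median -0.38) and none in DKO (median -0.12). Of all genes tested, 6.77% were lower in p65 KO, and of the abundant ones 13.1%. This list was not compared with other genes of like length, of which 26% were lower in the class with coding lengths up to 500 bases.

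Of 16 regulators of respiratory genes, none fell in p65 KO, and 3 rose, compared with 6.77% and 8.13% of all genes tested. In a list of 16 genes, none lower is close to the share of all genes. Those that rose were Ppara (0.88, adjusted p = 0.0393), which encodes a nuclear receptor of fatty acid oxidation, and the coactivator genes Pprc1 (0.69, adjusted p = 0.0109) and Ppargc1b (1.11, adjusted p = 0.0482). Ppargc1b was also higher in DKO (1.21, adjusted p = 0.0462), whereas Ppara was lower in DKO than in p65 KO (-1.16, adjusted p = 0.0339). Nrf1, the nuclear respiratory factor and a different protein from Nrf2, had -0.20 in p65 KO, and Gabpa had 0.23, and neither passed.

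The promoter sequences of the members were examined for the motifs of these regulators. RefSeq windows in GRCm38.p6, from 250 bases before to 50 bases after the start of a gene, were found for 66 of 81 members. The core GCATGCGC of the Nrf1 motif occurred on either strand in 15.2% of them, compared with 2.81% of all 27025 windows. The ETS motif CCGGAAG, bound by Gabpa, occurred in 22.7% against 9.12%, and the Esrra motif TCAAGGTCA in 3.03% against 0.407%. The antioxidant response element TGACNNNGC, the motif of Nrf2, occurred in 13.6% against 12.5%, and the NF-κB motif in 9.09% against 8.18%. Among the 22 members that fell in p65 KO and had a window, 2 held the Nrf1 core, 6 the ETS motif, none the antioxidant response element, and 4 the NF-κB motif, and among the 44 others the numbers were 8, 9, 9, and 2. These counts describe letters and not sites of binding, and the differences were not tested.

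The windows of Ndufb4 (chr16:37654319-37654618, minus strand) and Ndufb7 (chr8:83566508-83566807, plus strand) are shown because both genes passed in p65 KO compared with control and in DKO compared with p65 KO, and those of Ndufa6 (chr15:82354242-82354541, minus strand) and Atp5mg (chr9:44920693-44920992, minus strand) because they are the 2 members lower in p65 KO that hold the Nrf1 core. Ndufb9 and Uqcrq also passed in both comparisons, but no window was found for them. Capitals mark the Nrf1 core and the ETS motif, the latter in Atp5mg as its reverse complement CTTCCGG. None of the 4 spelled motifs occurs in the window of Ndufb4.
Ndufb4: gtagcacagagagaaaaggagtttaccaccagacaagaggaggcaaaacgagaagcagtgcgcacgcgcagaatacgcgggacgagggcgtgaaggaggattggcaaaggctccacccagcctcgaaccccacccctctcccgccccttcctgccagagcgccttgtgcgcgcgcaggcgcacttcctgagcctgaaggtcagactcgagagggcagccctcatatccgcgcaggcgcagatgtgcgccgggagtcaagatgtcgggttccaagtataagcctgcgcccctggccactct
Ndufb7: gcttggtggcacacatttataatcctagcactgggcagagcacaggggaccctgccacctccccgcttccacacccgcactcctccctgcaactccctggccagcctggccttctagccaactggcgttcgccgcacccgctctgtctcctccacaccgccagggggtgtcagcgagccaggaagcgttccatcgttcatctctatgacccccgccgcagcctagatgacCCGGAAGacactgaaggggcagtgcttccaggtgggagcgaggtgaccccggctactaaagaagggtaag
Ndufa6: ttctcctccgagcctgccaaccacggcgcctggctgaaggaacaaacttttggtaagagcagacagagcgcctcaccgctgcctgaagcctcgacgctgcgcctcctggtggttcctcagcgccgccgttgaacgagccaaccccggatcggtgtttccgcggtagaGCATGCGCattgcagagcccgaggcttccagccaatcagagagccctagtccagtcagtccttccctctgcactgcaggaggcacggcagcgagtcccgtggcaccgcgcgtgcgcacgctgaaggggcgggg
Atp5mg: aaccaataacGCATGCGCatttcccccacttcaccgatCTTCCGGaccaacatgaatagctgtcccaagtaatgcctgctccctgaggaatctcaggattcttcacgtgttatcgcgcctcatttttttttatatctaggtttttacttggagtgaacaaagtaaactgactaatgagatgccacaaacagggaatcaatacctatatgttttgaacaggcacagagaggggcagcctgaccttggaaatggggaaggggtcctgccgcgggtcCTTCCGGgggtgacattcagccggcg

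The 4 members within 5 Mb of a targeted gene were Atp5mc3 near Nfe2l2 and Cox8a, Ndufv1, and Ndufs8 near Rela at 1.49, 1.62, and 1.72 Mb. Of these, Ndufs8 fell in p65 KO, from 2399, 2223, and 2766 normalized counts in control to 1598 and 1913. In DKO it had 2577, 2142, and 2298 and overlapped with control (adjusted p = 0.747). Cox8a and Ndufv1 did not pass in p65 KO, although for both the p65 KO libraries were below all controls. Atp5mc3 had 11384, 11010, and 13224 in control, 10244 and 11351 in Nrf2 KO, and 11514, 10404, and 11662 in DKO. It was lowest in p65 KO, with 7870 and 9890 (-0.42, adjusted p = 0.0626). The part of the targeted loci in these values was not tested.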

How the data were processed

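The authors quantified single-end, poly(A)-selected reads with Salmon (1.10.3 in the submitters' processing notes) against GRCm39 and deposited a table of estimated counts, as whole numbers, with 1 column per mouse. The summing of transcripts to genes, and how reads were divided between genes and their pseudogene copies, are not given in the sources used here. Although the table is called normalized, the libraries differed in total and in size factor (0.879 to 1.26), and the values were treated as estimated counts without normalization. Of the 21939 gene identifiers, 21926 were named and placed by GENCODE M39 (GRCm39). No column was left over.

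All 10 libraries were fitted in 1 model of the 4 genotypes with edgeR 4.0.16 in R 4.3.3 (quasi-likelihood test, TMM, at least 10 counts summed over the libraries), with Benjamini-Hochberg adjustment over the 13641 genes tested within a comparison. DESeq2 1.42.0 was an alternative. A gene passed at an adjusted p of at most 0.05. The precision was set by 2 or 3 mice per genotype rather than by depth, since all but 4 members had means above 1000 counts. The replicates are separate mice. The code was tested on simulated counts.

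The members and lists were chosen with earlier results of these data known, and no list was tested as a set. Named genes are the core subunits of each complex, tissue isoforms, members that passed (where more than 12 passed, those with the lowest p, to which others were added by name after their values had been seen), the largest change in each complex, members within 5 Mb of Nfe2l2 or Rela, and genes of the lists that passed. The values of 1 named core subunit are not reported here. Cox6c, Atp5mc1, Ndufc1, and Ndufb10 were added in the same way where they were outside this rule. Plots were made in Python 3.11.15 with matplotlib 3.10.9.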

Additional observations from a re-analysis of the deposited data

How the results depend on the processing

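The 26 members lower in p65 KO became 37 with DESeq2, 4 with equal totals, 1 without scaling, 6 with the replicate number as a block, 10 when only control and p65 KO were fitted, and 9 (7 lower, 2 higher) with offsets for length and GC content, which were chosen after the data had been seen. The 6 members higher in DKO than in p65 KO became 15 with DESeq2, 4 (3 higher, 1 lower) with the offsets, 2, both lower, with equal totals, and 0 without scaling, with the block, and with only those genotypes. The interaction gave 2 with DESeq2, and DKO against control gave 1, Ndufc1, with the offsets. Leaving out 1 library gave 1 to 34 members in p65 KO, 0 to 4 in DKO against p65 KO, 0 to 1 in the interaction, and 0 in the other comparisons. Where an arm then held 1 mouse, it was assumed to vary like the other groups. Replicate numbers showed no clear pairing of the mice (1 of 13 same-number correlations was over 0.1, range -0.233 to 0.116). Values from groups of 2 mice mirror each other, so these correlations cannot exclude pairing. The cause of these changes was not tested. Equal totals moved the median of all genes by 0.18 in p65 KO.

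The medians below are in the order all members and complexes I to V. With equal totals they were -0.20, -0.24, 0.0328, -0.22, -0.23, and -0.16 in p65 KO, 0.0106, 0.0192, -0.18, 0.0875, -0.0089, and -0.00868 in DKO against p65 KO, and 0.0085, 0.0229, -0.19, 0.0193, 0.0734, and -0.0307 in the interaction, and complex II was at -0.14 in DKO against control and -0.15 against Nrf2 KO. Without scaling they were 0.15, 0.16, 0.17, 0.17, 0.13, and 0.15 in Nrf2 KO, -0.24, -0.23, -0.20, -0.27, -0.31, and -0.25 in DKO, 0.11, 0.11, -0.0893, 0.18, 0.0871, and 0.0839 in DKO against p65 KO, -0.39, -0.40, -0.36, -0.44, -0.39, and -0.38 in DKO against Nrf2 KO, and -0.0618, -0.0533, -0.27, -0.0437, -0.0115, and -0.11 in the interaction. With the offsets they were -0.12, -0.12, 0.00809, -0.20, -0.0203, and -0.12 in p65 KO, -0.00733, 0.00618, 0.00924, -0.00345, -0.0488, and -0.0397 in DKO, 0.12, 0.13, 0.0218, 0.13, -0.0269, and 0.12 in DKO against p65 KO, and 0.12, 0.14, -0.000686, 0.20, 0.0387, and 0.13 in the interaction. Leaving out 1 library gave -0.54 to -0.24, -0.58 to -0.26, -0.25 to -0.0473, -0.51 to -0.29, -0.53 to -0.25, and -0.55 to -0.17 in p65 KO, 0.14 to 0.43, 0.16 to 0.50, -0.00804 to 0.20, 0.24 to 0.47, 0.12 to 0.40, and 0.12 to 0.42 in DKO against p65 KO, and 0.15 to 0.47, 0.17 to 0.47, -0.071 to 0.20, 0.16 to 0.41, 0.16 to 0.53, and 0.0948 to 0.41 in the interaction. The extremes came from leaving out p65 KO replicate 1 or 2.

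Over all 81 members in p65 KO, 23 changed sign with the offsets and 9 with equal totals. Of the values of named genes, 32 changed sign, of which only that of Ndufa6 had passed. In p65 KO these were, with equal totals, Sdhd (0.0473), Atp5mc1 (0.11), Cox6c (0.16), Sdha (0.0184), Cox7a2l (0.12), Atp5f1b (0.0623), Atp5f1a (0.0757), and Ndufa4l2 (0.0563), and with the offsets Cox5a (0.0827), Sdhd (0.12), Atp5mc1 (0.35), Cox6c (0.45), Ndufa6 (0.00094), Cox7a2l (0.18), Atp5f1b (0.0158), Ndufa4l2 (0.19), Cox6a1 (0.0241), and Atp5if1 (0.0568). Without p65 KO replicate 1 they were Sdhd (0.00989), Cox7a2l (0.0666), Cox6c (0.14), and Atp5f1a (0.0139). Without p65 KO replicate 2 it was Ndufa4l2 (0.0342), and without control replicate 2 again Ndufa4l2 (0.03). Cox6c was also above 0 without scaling (0.0181), with the block (0.0176), and without control replicate 1 (0.0176) or 3 (0.0296). In DKO, Ndufs8 was above 0 with the offsets (0.0180) and without control replicate 3 (0.0178). In Nrf2 KO without scaling, Atp5mc3 (0.0376) and Uqcr10 (0.0255) changed sign. Leaving aside the 2 comparisons with p65 KO libraries and the interaction, no other alternative changed a count of passing members beyond Ndufc1 in DKO.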
